A study of Saccharomyces cerevisiae with 12 samples.

Results

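Budding yeast (Saccharomyces cerevisiae) RNA-seq libraries were sorted by how much RNA of SCC2 they held, and the libraries low in SCC2 RNA were compared with those high in it over every other gene. The deposited level of SCC2 (YDR180W) chose the libraries: under 20 TPM was low and over 80 TPM was high, where TPM is transcript abundance per length, scaled to a fixed total in each library. This took 11 of the 12 libraries, 4 of them low and 7 high. The low libraries were the 3 of the empty vector and library 3 labelled G1242V. The high libraries were the 3 labelled WT, the 3 labelled R787G and library 2 labelled G1242V. Library 1 labelled G1242V lay between the thresholds and was left out of the comparison. In deposited TPM the highest low library stood at 14.33, the library between at 50.13 and the lowest high library at 84.11.

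All 12 cultures were of strain W303, mating type a (MATa). All carried SCC2-AID*-6FLAG-HYG and ura3-1::ADH1-OsTIR1(pMK200,URA3) together with the alleles can1-100, trp1-1, his3-11,15 and ade2-1 and a leu2 allele that holds mutations 3 and 112. The chromosomal SCC2 gene thus carries an auxin-inducible degron in every group, controls included, and the plant F-box protein OsTIR1, driven by the ADH1 promoter, marks the tagged protein for degradation once auxin is added. The groups differ by a plasmid with the HIS3 marker: pRS413-SCC2-7MYC-HIS (WT), pRS413-scc2-R787G-7MYC-HIS (R787G), pRS413-scc2-G1242V-7MYC-HIS (G1242V), or pRS413-HIS with no SCC2 insert (null in the labels, empty vector here). Cells in medium lacking histidine were diluted to an OD600 of about 0.1, grown for 90 min, given 1 mM auxin (3-indoleacetic acid) for 3 h and harvested at an OD600 between 0.4 and 0.8, so that the groups ask what the SCC2 changes do once the chromosomal protein is removed. The growth protocol speaks of triplicate cultures, duplicate for the null strain, while 3 null libraries are present. It does not say whether cultures came from separate transformants. The p-values below therefore measure the spread between these libraries.

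Scc2, with its partner Scc4, loads the cohesin ring onto chromosomes and drives the ring's ATPase. Cohesin holds sister chromatids together from S phase to anaphase, and chromosomes without it set off the spindle checkpoint. Transcription in the yeast cell cycle runs in waves: SBF and MBF act at G1/S, Mcm1 with the forkhead factor Fkh2 and Ndd1 at G2/M, and Swi5, itself made at G2/M, at the M/G1 boundary as cells leave mitosis, when daughter cells separate from their mothers.

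Read depth is unknown because the values are TPM. Library sums of TPM lay between 999546 and 999718, and Spearman correlations between libraries, across genes, lay between 0.977 and 0.996. Several libraries stood apart from the rest of their label. Empty vector library 3 had the lowest share of TPM in SCR1, the signal recognition particle RNA, at 7.07% where the highest library had 15.5%. On the first principal component, which held 45.6% of the variance, WT library 3 at -14.8 and R787G library 3 at -15.6 lay at one end and empty vector library 2 at 14.5 at the other. The a-cell genes summed to between 473 and 744 scaled TPM in every library, and the 4 alpha-cell genes to between 32.6 and 56.1. Of the alpha-cell genes, MF(ALPHA)2, an alpha-factor gene, lay between 0 and 1.11 and STE3 between 4.93 and 6.47. MF(ALPHA)1 stood at 3.39 or more, and SAG1 at 22.2 to 30.6. SAG1 thus lay above the a-cell genes BAR1 (9.79 to 20.7) and ASG7 (9.57 to 14.9). The sums, though not every single gene, followed the labelled mating type in all libraries.

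SCC2 was the gene that chose the libraries, so its levels are a description. After scaling, it stood at 120, 128 and 109 TPM in WT libraries 1 to 3, at 86.5, 99.6 and 90.2 in R787G, at 12.8, 12.5 and 12.1 in the empty vector, and at 51.2, 93.2 and 12.4 in the libraries labelled G1242V. The low libraries averaged 12.4 ± 0.289 and the high ones 104 ± 15.8 scaled TPM (SD, n = 4 and 7). Reads from the degron-tagged chromosomal gene and from a plasmid copy are summed, and TPM does not show which allele was read. Libraries 1 and 3 labelled G1242V thus go against the pattern of a plasmid with an SCC2 insert, while library 2 does not. What their cultures carried is not known from these values.

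HIS3, the selection marker on every plasmid (imidazoleglycerol-phosphate dehydratase of histidine synthesis), was high where SCC2 was low. It stood at 3500, 2590 and 2423 scaled TPM in the empty vector and at 2780 in library 3 labelled G1242V. The high libraries ranged from 796 to 1353 with a median of 900, and the library between stood at 2498, inside the range of the low libraries. The low and high ranges of HIS3 did not overlap, and its log2 difference, low minus high, was 1.53. YOR203W, a reading frame numbered between HIS3 and DED1, stood 1.59 higher on the log2 scale. HIS3 is carried on the plasmids that bring in SCC2, so no p-value is given for HIS3 or YOR203W, and the parts of SCC2 and HIS3 RNA in what follows cannot be told apart.

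**Figure D1:**
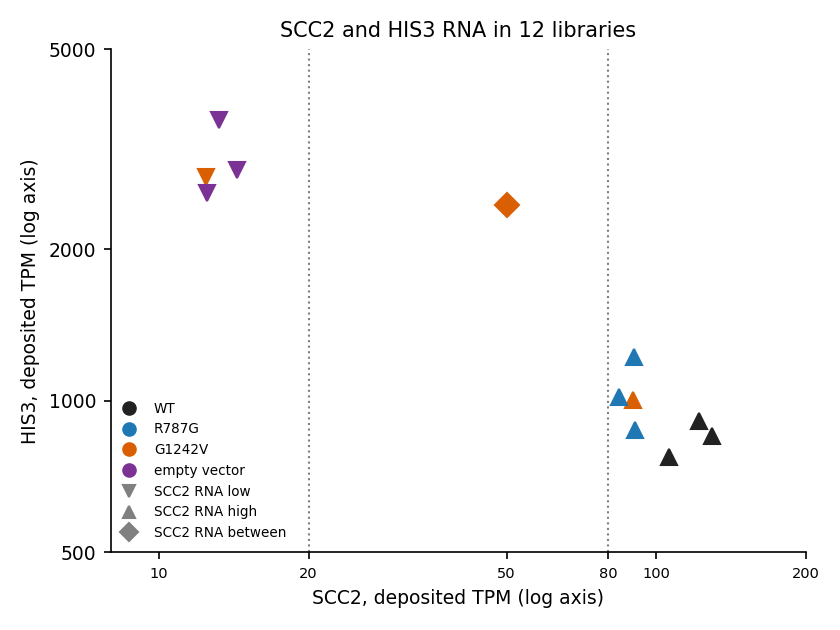
Deposited SCC2 TPM (x axis, log scale) against deposited HIS3 TPM (y axis, log scale), 1 point per library, with colour for the label and shape for the SCC2 class; dotted lines mark the thresholds of 20 and 80 TPM. The 4 low libraries sit left of 20 at 2588 or more in HIS3, the 7 high libraries right of 80 at 1223 or less, and library 1 labelled G1242V lies between in SCC2 and at 2446 in HIS3, just below the low libraries on this unscaled axis.

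The reference stretches of SCC2 around the changed residues show where the plasmid alleles differ. SCC2 lies on the plus strand of chromosome IV, 821295 to 825776 (R64 assembly, which is sacCer3), as a single coding exon of 1493 codons before the stop. In the following lines the capitals mark the reference codon of the residue that the label names, arginine for R787G and glycine for G1242V, each with 10 codons on either side.
SCC2 around the codon of R787G, chrIV:823623-823685: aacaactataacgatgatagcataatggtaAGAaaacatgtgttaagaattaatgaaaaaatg
SCC2 around the codon of G1242V, chrIV:824988-825050: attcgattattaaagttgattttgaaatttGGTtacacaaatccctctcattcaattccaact
The plasmid sequences themselves were not read.

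The libraries labelled G1242V were placed between the other groups by genes chosen without them. The 200 genes with the smallest p between the empty vector and the WT and R787G libraries together were used, SCC2 and HIS3 left out, and each gene put a library on a scale from 0 (mean of WT and R787G) to 1 (mean of the empty vector). Library 3 labelled G1242V had a median position of 0.905, with quartiles of 0.707 and 1.11, and lay nearer the empty vector for 174 of the 200 genes. Library 2 had a median of 0.108 and lay nearer the empty vector for 28 genes. Library 1 had a median of 0.555, with quartiles of 0.403 and 0.815, and was nearer the empty vector for 120 genes. Placed the same way with itself left out, the empty vector libraries stood at 0.670, 0.954 and 0.839, the R787G libraries at 0.317, 0.056 and -0.274 and the WT libraries at 0.093, 0.225 and -0.074. In RNA other than SCC2, library 3 therefore fell within the range of the empty vector libraries, library 2 within that of WT and R787G, and library 1 between the ranges.

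**Figure D2:**
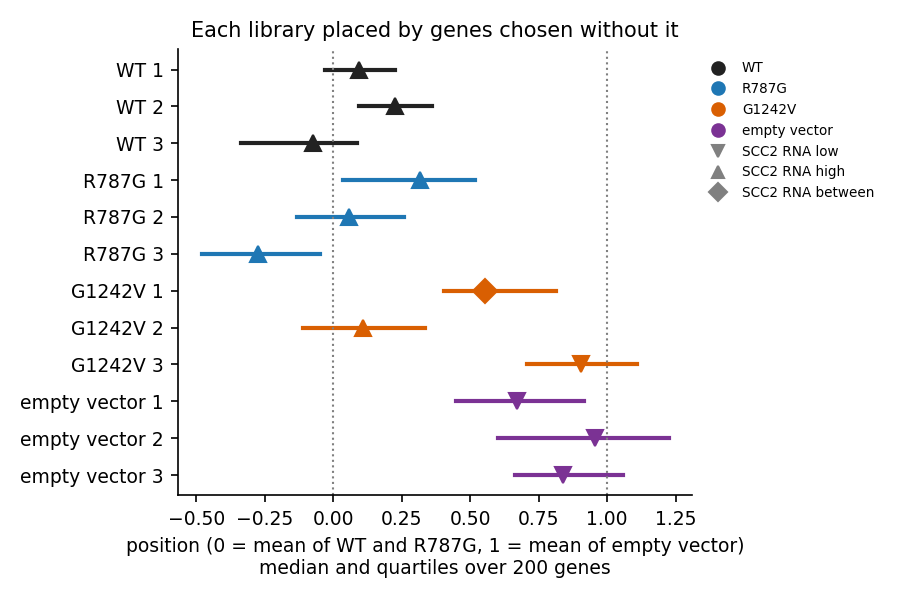
Position of each library (rows) on the scale from 0, the mean of WT and R787G, to 1, the mean of the empty vector (x axis, no unit), as the median over 200 genes with bars to the quartiles. Library 3 labelled G1242V (0.905) sits among the empty vector libraries, library 2 (0.108) among WT and R787G, and library 1 (0.555) between them.

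Libraries low in SCC2 RNA held less RNA of the genes of late mitosis and of daughter cell separation, and more RNA of the zinc regulon. Of 6096 features with a mean of at least 1 TPM, 645 were called (10.6%) by limma's moderated two-sided test on log2(scaled TPM + 1) at a Benjamini-Hochberg adjusted p under 0.05. Of these, 285 were higher in the low libraries (4.68%) and 360 were lower (5.91%). HIS3 and YOR203W are among the 285. Most differences were small: the median absolute log2 difference of the called features was 0.35, and only 7 rose and 23 fell by 2-fold or more. The 7 again include HIS3 and YOR203W. The low and high libraries did not overlap for 640 features (10.5%), of which 490 were called. The largest rises and falls named below were picked among called features without overlap, so the separation of genes named on that ground is no added result. Fewer cells of a cycle stage and less RNA per cell cannot be told apart in such bulk samples.

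By labels alone, with the empty vector set against WT and R787G and no library labelled G1242V, 313 features were called (5.13%), 121 of them higher (1.98%) and 192 lower (3.15%). Of these, 295 were also called between low and high. Both comparisons share 9 libraries, so that overlap is no separate support. The count depended on single libraries: leaving out WT library 1 gave 339 and leaving out its library 3 gave 367, while leaving out empty vector library 2 gave 220 and its library 3 gave 388. Leaving out library 3 labelled G1242V gave 401. Without any scaling beyond TPM, the median of all genes moved up by 0.10 on the log2 scale and 81.1% of called features were higher, where 44.2% were after scaling.

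**Figure D3:**
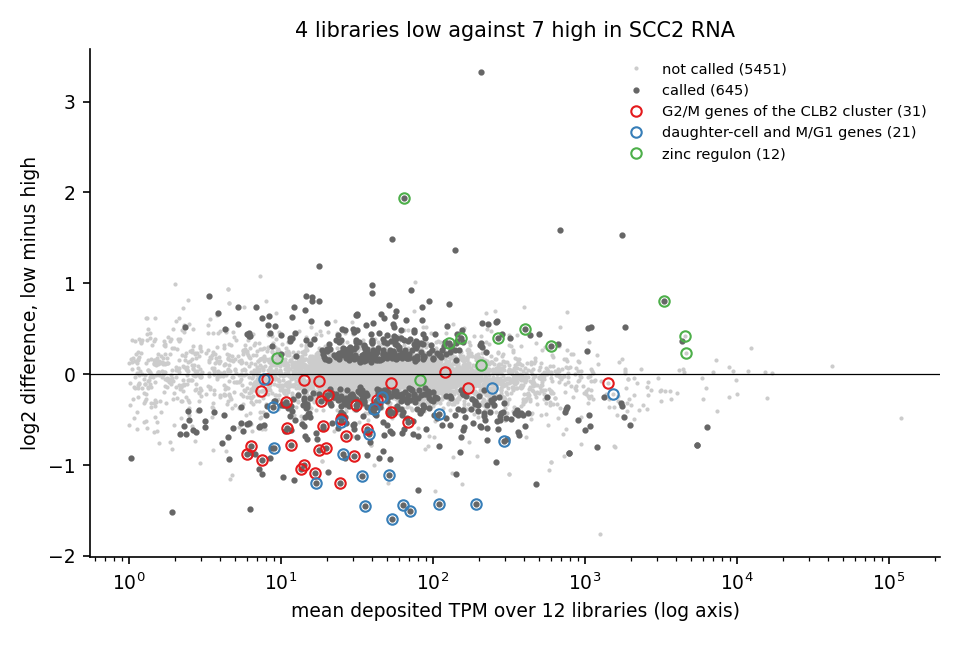
Log2 difference, low minus high (y axis), against mean deposited TPM over the 12 libraries (x axis, log scale) for each feature tested; dark points are the 645 called features, light points the 5451 others, and rings mark the 31 G2/M genes, the 21 daughter-cell and M/G1 genes and the 12 zinc genes. The rings of the first 2 lists lie mostly below 0 and those of the zinc list mostly above, and the highest points are YOR387C at 3.32 and VEL1 at 1.94.

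The genes transcribed at G2/M stood lower in the low libraries. Of 31 members tested of the CLB2 cluster, the set under Mcm1, Fkh2 and Ndd1, 23 fell and none rose, against 5.91% of all features lower. Their median log2 difference was -0.53, where the median of all features was 0.00. Between low and high libraries 21 of the 31 did not overlap, against 10.5% of all features. By labels alone 19 fell and none rose, and 18 fell with TPM left unscaled.

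SWI5 (YDR146C, chromosome IV, 748613 to 750742), the M/G1 transcription factor, showed this most evenly. Its scaled TPM was 12.9, 11.9 and 14.3 in the empty vector and 14.0 in library 3 labelled G1242V, against 30.4 to 33.6 in the high libraries (median 31.7). The lowest high library thus held more than any low library, and library 1 labelled G1242V lay between at 21.01. The log2 difference was -1.20 (SE 0.05, adjusted p = 1.02e-07), and -1.23 by labels alone (adjusted p = 6.87e-06).

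CHS2 (chromosome II, 311898 to 314789), the chitin synthase that builds the primary septum between mother and bud, had 8.26, 7.17 and 8.33 scaled TPM in the empty vector and 7.86 in library 3 labelled G1242V. The high libraries ranged from 15.7 to 19.7 (median 17.3), with no overlap, and library 1 labelled G1242V stood at 10.3. The log2 difference was -1.04 (SE 0.07, adjusted p = 3.01e-06). HST3, a histone H3 lysine 56 deacetylase, fell by 1.09, and KIN3, a mitotic NIMA-related kinase, fell by 1.00 on the log2 scale, both with separate ranges. CLB2, the main mitotic cyclin, had 4.52 ± 0.335 scaled TPM in the low and 9.65 ± 0.425 in the high libraries (log2 difference -0.95, adjusted p = 3.01e-06). CDC5, the polo kinase, had 14.4 ± 1.23 and 21.9 ± 0.711 (log2 difference -0.57, adjusted p = 4e-05). HOF1, MYO1 and IQG1 of the contractile ring fell by 0.88, 0.49 and 0.68, and CDC20, an activator of the anaphase-promoting complex, fell by 0.30. ASE1, the spindle midzone protein, was the only member of the 31 above 0, at 0.03, and did not pass the test. CLB2, CDC5, HOF1, MYO1, IQG1, CDC20 and ASE1 were singled out after their values were seen.

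The daughter-cell and M/G1 genes, switched on as cells leave mitosis, had the lowest median of the 29 lists examined. Of 21 tested, 17 fell and none rose, against 5.91% of all features lower. The median was -0.82, all 21 lay below 0, and 17 did not overlap, against 10.5% of all features. By labels alone 16 fell and none rose. Set against the mean of the 7 high libraries, the median of this list was -0.74, -1.06 and -0.79 in the empty vector libraries and -0.89 in library 3 labelled G1242V. It was -0.34 in library 1 labelled G1242V, 0.17 in library 2, -0.20, -0.22 and -0.13 in WT and 0.04, 0.08 and 0.29 in R787G. Every low library was thus below every high one, and within the high libraries WT lay below R787G.

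**Figure D4:**
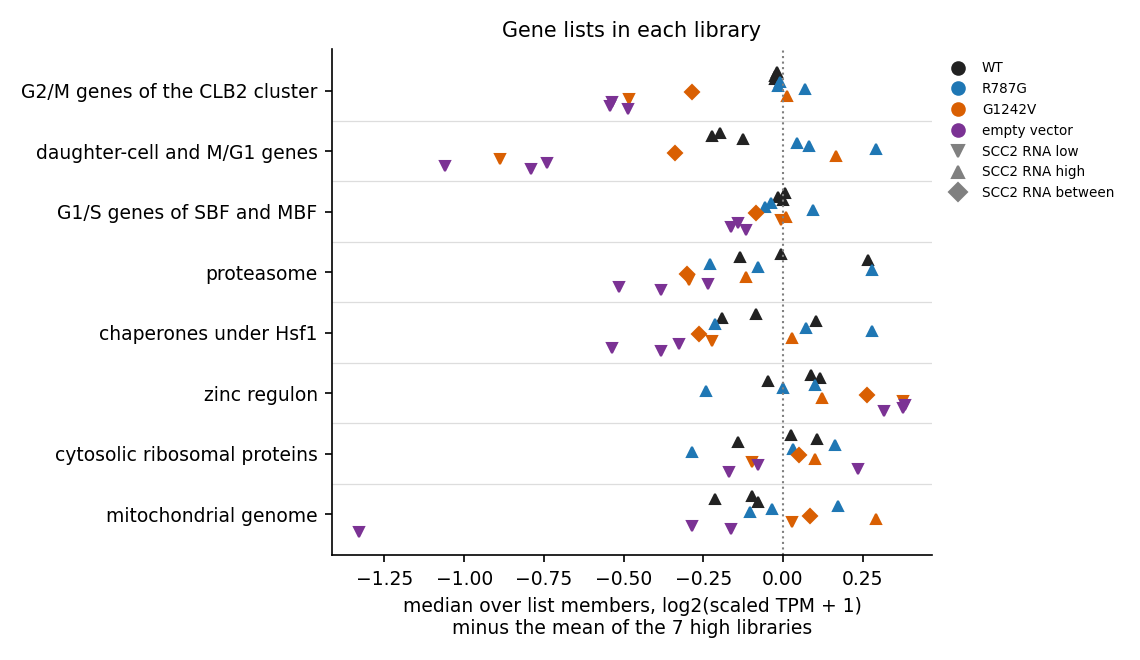
Median log2(scaled TPM + 1) of each of 8 gene lists (rows) in each library, less the mean of the 7 high libraries (x axis), 1 point per library, with colour for the label and shape for the SCC2 class. In the G2/M and daughter-cell lists the 4 low libraries lie below every high library and library 1 labelled G1242V lies between, and in the mitochondrial genome list empty vector library 3 lies lowest, at -1.33.

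DSE1 (YER124C, chromosome V, 407342 to 409063), a daughter-specific cell wall protein, had the largest fall of these genes. It had 27.1, 18.4 and 20.8 scaled TPM in the empty vector and 28.1 in library 3 labelled G1242V, against 51.7 to 92.9 in the high libraries (median 75.5). Library 1 labelled G1242V stood at 49.8, just under the lowest high library, WT library 2. The log2 difference was -1.60 (SE 0.17, adjusted p = 9.92e-05). EGT2 (YNL327W, chromosome XIV, 24048 to 27173), a cell wall protein needed for timely separation after cytokinesis, had 33.8, 22.6, 33.7 and 32.5 in the low libraries in the same order. The high libraries held 70.0 to 124 (median 81.7), again apart, with library 1 labelled G1242V at 54.2 between them. Its log2 difference was -1.44 (SE 0.15, adjusted p = 8.8e-05).

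The enzymes that cut the septum moved with them. CTS1, the endochitinase that frees the daughter cell, stood at 94.3 ± 14.6 in the low and 257 ± 53.0 in the high libraries (log2 difference -1.43, adjusted p = 8.8e-05). DSE4, a glucanase, fell by 1.51, SCW11, a glucanase-like cell wall protein, fell by 1.45, DSE2 fell by 1.43, and PRY3, a cell wall protein of the CAP family, fell by 1.20. AMN1, which turns off the mitotic exit network in daughters, fell by 1.11 and SIC1, the inhibitor of mitotic cyclin kinase, fell by 0.44. ASH1, RME1, CDC6 and PST1 were the 4 that did not pass, at -0.25, -0.15, -0.05 and -0.21. AMN1, SIC1 and these 4 were singled out after their values were seen. The list was made of known targets of the M/G1 wave, so its makeup is not independent of the pathway.

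The windows from 450 to 151 bases before the coding start of DSE1, EGT2 and SWI5 are printed because these genes carry the fall and because their lists are defined by transcription factors with known binding letters. Sequences are from the R64 genome, 5′ to 3′ on the gene's strand. Capitals mark CCAGC, the core bound by Swi5, on either strand (read as GCTGG on the other) in DSE1 and EGT2. In SWI5 they mark GTAAACA, a forkhead core, also searched on both strands.
DSE1, chrV:409214-409513, minus strand: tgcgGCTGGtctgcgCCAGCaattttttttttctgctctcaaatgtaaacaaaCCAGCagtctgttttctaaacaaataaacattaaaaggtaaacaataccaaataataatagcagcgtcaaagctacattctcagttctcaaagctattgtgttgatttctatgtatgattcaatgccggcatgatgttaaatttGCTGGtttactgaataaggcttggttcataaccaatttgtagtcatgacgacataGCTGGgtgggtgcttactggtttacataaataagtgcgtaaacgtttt
EGT2, chrXIV:23598-23897, plus strand: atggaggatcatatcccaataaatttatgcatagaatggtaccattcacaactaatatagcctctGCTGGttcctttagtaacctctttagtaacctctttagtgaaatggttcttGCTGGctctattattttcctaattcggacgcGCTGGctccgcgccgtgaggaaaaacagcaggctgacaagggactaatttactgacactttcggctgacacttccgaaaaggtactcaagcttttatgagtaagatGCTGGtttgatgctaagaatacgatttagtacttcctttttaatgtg
SWI5, chrIV:750893-751192, minus strand: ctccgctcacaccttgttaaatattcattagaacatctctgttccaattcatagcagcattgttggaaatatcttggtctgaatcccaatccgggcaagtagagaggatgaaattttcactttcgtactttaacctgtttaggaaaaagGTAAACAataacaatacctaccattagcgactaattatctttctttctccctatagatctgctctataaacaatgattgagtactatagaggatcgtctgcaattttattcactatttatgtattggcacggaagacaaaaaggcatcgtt
DSE1 holds 5 matches of CCAGC and EGT2 holds 4, while the same window of CTS1 holds 0.

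Across the lists, CCAGC was in the window of 16 of 21 genes of the daughter-cell and M/G1 list (76.2%) and in 1427 of 5681 windows of tested coding genes (25.1%), but in 2 of 31 of the G2/M list. GTAAACA was in 15 of 31 windows of the G2/M list (48.4%), in 3 of 21 of the daughter-cell and M/G1 list and in 333 of all 5681 (5.86%). CCNNNNNNGG, the core of the Mcm1 site, was in 17 of 31 (54.8%) and in 36.7% of all. These shares describe letters in fixed windows, and the lists were drawn up from known targets of the factors.

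**Figure D5:**
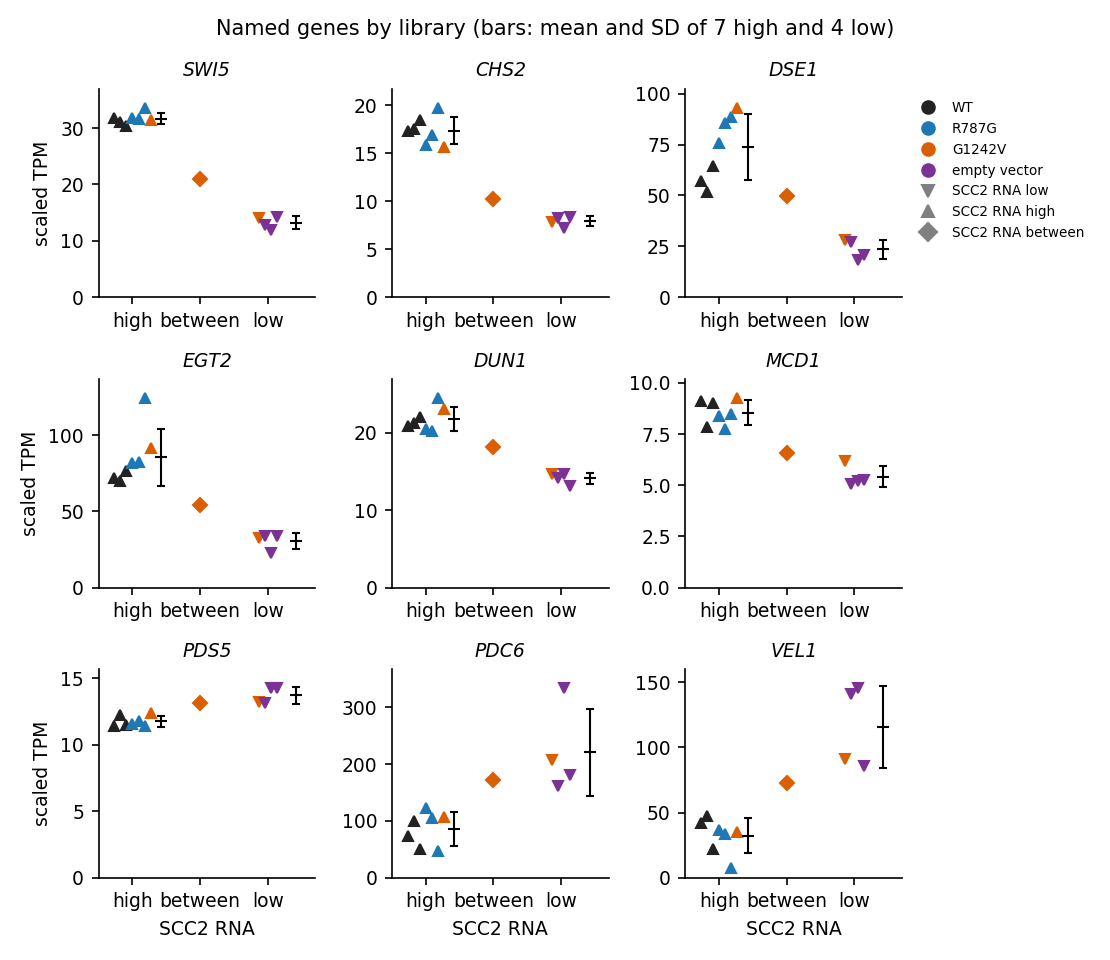
Scaled TPM (y axis, from 0) of SWI5, CHS2, DSE1, EGT2, DUN1, MCD1, PDS5, PDC6 and VEL1 in each of the 12 libraries, placed by SCC2 class (x axis), with colour for the label and bars for the mean and SD of the 7 high and the 4 low libraries. SWI5, CHS2, DSE1, EGT2, DUN1 and MCD1 are lower in the 4 low libraries than in any high library. PDS5, PDC6 and VEL1 are higher there. Library 1 labelled G1242V lies between the low and high libraries in every panel but PDC6, where it lies among the low ones.

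Among 11 other genes of the cohesin ring, its loader and its regulators, 1 fell and 1 rose, where 5.91% and 4.68% of all features did, and 9 did not pass the test. The median was 0.08, and by labels alone it was again 1 fall and 1 rise. MCD1 (YDL003W, chromosome IV, 444683 to 446383), the kleisin that closes the ring and is cut at anaphase, had 5.05, 5.20 and 5.27 scaled TPM in the empty vector and 6.18 in library 3 labelled G1242V. The high libraries held 7.77 to 9.26 (median 8.48), and the ranges were apart, with library 1 labelled G1242V at 6.59. The log2 difference was -0.57 (SE 0.07, adjusted p = 0.000393).

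PDS5 (YMR076C, chromosome XIII, 416196 to 420029), the cohesin-bound regulator of its release and acetylation, went the other way. It had 13.1, 14.2 and 14.2 scaled TPM in the empty vector and 13.2 in library 3 labelled G1242V, against 11.4 to 12.4 (median 11.6) in the high libraries, a small difference without overlap. Its log2 difference was 0.20 (SE 0.05, adjusted p = 0.0212, and 0.0370 by labels alone). It did not pass without empty vector library 2 or 3, without the WT libraries, without the R787G libraries, or with library 1 labelled G1242V counted as high. SCC4, the partner of Scc2 in the loader, had 23.5 ± 1.60 in the low and 26.4 ± 3.38 in the high libraries and did not pass (adjusted p = 0.278). The SMC subunits did not pass either, with SMC1 at 14.0 ± 0.719 against 15.0 ± 0.684 and SMC3 at 12.1 ± 0.565 against 12.8 ± 0.536. IRR1, the fourth ring subunit, stood 0.15 higher (adjusted p = 0.0511), and its ranges overlapped. RAD61, the releasing factor, ECO1, the acetyltransferase, and HOS1, the deacetylase, had log2 differences of 0.08, -0.11 and 0.12. ESP1, the separase, and PDS1, its inhibitor, stood at 0.08 and 0.20. None of these 5 passed.

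Genes of the G1/S wave under SBF and MBF were mixed. Of 40 tested, 12 fell and 3 rose, where 5.91% and 4.68% of all features did, with a median of -0.11, and 25 did not pass. Without empty vector library 2, 7 fell and 1 rose. By labels alone 8 fell and 2 rose, and with TPM unscaled 6 fell and 3 rose with a median of -0.01. DUN1 (YDL101C, chromosome IV, 280307 to 281848), a checkpoint kinase, had 14.1, 14.6 and 13.1 scaled TPM in the empty vector and 14.6 in library 3 labelled G1242V. The high libraries held 20.2 to 24.4 (median 21.3), above all 4, and library 1 labelled G1242V stood at 18.2, between them. Its log2 difference was -0.59 (SE 0.06, adjusted p = 6.04e-05). RFA2, a subunit of the single-strand binding protein RPA, fell by 0.62 and TOS4, a forkhead-associated domain protein, by 0.59 on the log2 scale. RNR1, the large subunit of ribonucleotide reductase, stood at 9.74 ± 1.35 against 14.1 ± 1.26 (log2 difference -0.50). The 3 that rose were RAD27, the flap endonuclease (0.35), MNN1, a mannosyltransferase of the Golgi (0.26), and POL2, the catalytic subunit of DNA polymerase epsilon (0.19). RNR1, RAD27, MNN1 and POL2 were singled out after their values were seen.

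Of 14 genes of the DNA damage response, 1 fell, none rose and the median was -0.07. The member that fell was HUG1, an inhibitor of ribonucleotide reductase whose gene is induced by damage, with 2.52 ± 0.424 scaled TPM in the low and 5.81 ± 1.49 in the high libraries (log2 difference -0.93, adjusted p = 0.00479). Of 36 kinetochore and spindle checkpoint genes, 3 fell, none rose and the median was 0.00. These were BUB3, a checkpoint protein (-0.37), SLI15, of the Aurora complex (-0.23), and NUF2, of the outer kinetochore (-0.16). BUB3 had 12.2 in each empty vector library and 12.6 in library 3 labelled G1242V, against 14.5 to 17.4 in the high libraries. By labels alone only 1 of the 36 fell. Of 13 condensin and Smc5/6 genes, 2 fell, both subunits of condensin: YCS4 by 0.34 and YCG1 by 0.19. Of 10 histone genes 1 fell, HHF1 for histone H4 (log2 difference -0.44, adjusted p = 0.0445), and of the MCM2-7 helicase genes 1 of 6 fell, MCM2 by 0.21. The shares in the checkpoint, condensin, histone, MCM and damage lists are near the 10.6% called among all features or rest on 2 genes at most.

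The zinc regulon, the targets of the activator Zap1, was the list with the largest share of rises. Of 12 members, 7 rose and none fell, against 4.68% of all features higher, and the median was 0.37. By labels alone 4 rose, and without empty vector library 2 it was 3. ZAP1 itself had 333, 321 and 299 scaled TPM in the empty vector and 308 in library 3 labelled G1242V, against 203 to 266 (median 248) in the high libraries. The ranges were apart, with library 1 labelled G1242V at 284, and the log2 difference was 0.40 (SE 0.07, adjusted p = 0.0066). ZRT2, the low-affinity zinc transporter, stood at 482 ± 32.1 against 344 ± 50.3 (log2 difference 0.50). ZPS1, a cell surface protein under Zap1, was higher by 0.80 (adjusted p = 0.0339, and 0.0875 by labels alone).

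VEL1, a member of the same list of unknown function, had 141, 145 and 86.0 scaled TPM in the empty vector and 90.8 in library 3 labelled G1242V. The high libraries held 7.62 to 47.7 (median 35.5), with the lowest value in R787G library 3, and library 1 labelled G1242V stood at 72.6. Its log2 difference was 1.94 (SE 0.40, adjusted p = 0.0118). YOR387C, an uncharacterized frame, shares 92.4% of its bases with VEL1 over 621 bases, so reads of 50 bases may be shared between them. It had 418, 767 and 255 in the empty vector and 356 in library 3 labelled G1242V, against 4.36 to 105 in the high libraries. This was the largest rise among named genes, at 3.32 (SE 0.69, adjusted p = 0.0123), and the values within each set spread widely.

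Other large rises were of single genes of different roles, picked among called features whose low and high ranges were apart. PDC6 (YGR087C, chromosome VII, 651290 to 652981), the minor isoform of pyruvate decarboxylase, had 162, 333 and 180 scaled TPM in the empty vector and 206 in library 3 labelled G1242V. The high libraries ranged from 47.4 to 123 (median 101), below every low library, and library 1 labelled G1242V stood at 172. The log2 difference was 1.36 (SE 0.28, adjusted p = 0.0123). INO1, inositol-3-phosphate synthase, had 58.5, 168, 51.5 and 75.5 in the low libraries in the same order and 15.2 to 45.5 in the high ones. Its log2 difference of 1.48 passed between low and high (adjusted p = 0.0233) and not by labels alone (adjusted p = 0.0590). TIS11, an RNA-binding protein of the response to low iron, rose by 0.98. Only 1 of 20 tested genes of the iron regulon rose, where 4.68% of all features did. PMA2, the second plasma membrane proton pump, whose gene shares 80.3% of aligned bases with PMA1, rose by 0.93.

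Genes of sugar uptake and of amino acid synthesis moved in small numbers. Of 19 tested hexose transporter and glucose repressor genes, 5 rose, where 4.68% of all features did, and none fell, with a median of 0.12. By labels alone 3 rose, and 3 did without empty vector library 2. The median was 0.04 without empty vector library 3 and 0.22 without library 3 labelled G1242V. HXT5, a hexose transporter of slow growth, had 142, 213 and 145 scaled TPM in the empty vector and 177 in library 3 labelled G1242V. The high libraries held 81.4 to 116 (median 102), below all 4, and the log2 difference was 0.77 (SE 0.13, adjusted p = 0.00442). NRG2, a repressor of glucose-repressed genes, rose by 0.76 (adjusted p = 0.0025), from 39.5 ± 5.59 in the high to 67.7 ± 11.9 in the low libraries.

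Of 47 targets of Gcn4 outside the histidine pathway, 10 rose and 3 fell, where 4.68% and 5.91% of all features did, with a median of 0.04. The rises were led by arginine genes: ARG3, ornithine carbamoyltransferase, by 0.59 (adjusted p = 0.00215), ARG4, argininosuccinate lyase, by 0.57, and ARG1, argininosuccinate synthetase, by 0.51. The falls were led by genes of the leucine and branched-chain pathway: LEU1, isopropylmalate isomerase, by 0.72 (adjusted p = 0.00599) and BAT1, the mitochondrial aminotransferase, by 0.59. ARG3 had 335, 358, 324 and 299 scaled TPM in the low libraries, in the order of the empty vector libraries and then library 3 labelled G1242V, against 177 to 249 in the high ones. LEU1 had 189, 249, 223 and 223, against 288 to 457. GCN4 itself stood at -0.03. By labels alone 7 rose and 1 fell, and without empty vector library 2 only 3 rose, with a median of -0.04. ARG1 and GCN4 were singled out after their values were seen. Of the 6 other histidine genes 2 rose, HIS1 by 0.34 and HIS2 by 0.18, both with overlapping ranges, and by labels alone 1 rose.

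Proteasome and chaperone genes stood lower, and how many were called changed with single libraries and with the fit. All 34 proteasome genes lay below 0 with a median of -0.35, and 13 fell, where 5.91% of all features did, led by RPN10, the ubiquitin receptor, by 0.53. By labels alone 1 fell, with a median of -0.40. None passed once empty vector library 2, empty vector library 3 or WT library 1 was left out, with medians of -0.30, -0.35 and -0.35, nor with TPM unscaled, at -0.24. Without R787G library 1, 21 fell, and with the replicate number as a block 32 fell, with a median of -0.40. The list's median against the high libraries was 0.27 in WT library 3 and 0.28 in R787G library 3, the libraries at one end of the first principal component, and between -0.23 and -0.01 in the other 5 high libraries. It was -0.23, -0.51 and -0.38 in the empty vector and -0.30 in both libraries 1 and 3 labelled G1242V. Of 24 chaperone genes under the heat shock factor Hsf1, 10 fell with a median of -0.37, against the same 5.91%, among them HSP10, the mitochondrial chaperonin partner, by 0.72 (adjusted p = 0.0167), and CPR6, a cyclophilin of the Hsp90 complex, by 0.57. By labels alone 5 fell, with the replicate block 16 fell, and without empty vector library 2 none passed, with a median of -0.32. With TPM unscaled 2 fell, with quantile normalization 4, and with library 1 labelled G1242V counted as high 1. Against the high libraries, the chaperone median was -0.21 in R787G library 1 and -0.22 in library 3 labelled G1242V. Without the WT libraries no gene of either list passed, with medians of -0.32 for the proteasome and -0.39 for the chaperones. The part of single libraries in the falls was not tested beyond leaving libraries out.

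Of 94 ribosome biogenesis genes, 10 fell and none rose, with a median of -0.12, against 5.91% of all features lower. By labels alone 1 fell, 2 fell without library 3 labelled G1242V or without empty vector library 2, and none with TPM unscaled. Without the WT libraries none fell, with a median of -0.04. Against the high libraries, the list's median was 0.12, 0.13 and 0.02 in WT. In R787G it was -0.04, -0.09 and -0.09, and in library 2 labelled G1242V -0.08. These lay within the range of the low libraries, -0.24 to 0.02. The low and high libraries did not overlap for 4 of the 94 (4.26%), against 10.5% of all features. Of 138 cytosolic ribosomal protein genes 4 fell and none rose, among them RPS9A (log2 difference -0.53, adjusted p = 0.00154). This was 2.90% called, below the 10.6% of all features. Of 35 stress genes under Msn2/4, 2 rose and 3 fell, or 14.3% called, near the 10.6% of all features. Among them CTT1, cytosolic catalase, rose by 0.34, and HSP12, a small membrane-bound heat shock protein, fell by 0.59. The median was -0.04, and 0.06 with TPM unscaled. The genes of the mitochondrial genome had a median of -0.41, with none of 9 called, and stood at -1.33 in empty vector library 3 alone, the library with the lowest SCR1 share. The other 3 low libraries had medians of -0.28, -0.16 and 0.03.

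Markers of other cell states were examined for the same libraries. Among all features 10.6% were called, 4.68% higher and 5.91% lower. The shares called in the following lists were near or below that or rested on 1 gene. Of 7 a-cell genes 1 fell, BAR1, the protease that degrades alpha factor, from 17.1 ± 2.93 in the high to 10.2 ± 0.377 in the low libraries (log2 difference -0.68, adjusted p = 0.00277). Of 3 alpha-cell genes tested 1 rose, SAG1, alpha-agglutinin, by 0.22, and the summed alpha-cell genes ran from 40.7 to 56.1 in the low and from 32.6 to 42.6 in the high libraries, overlapping. Of 10 haploid genes 1 fell. Of 23 tested meiosis genes, ZIP1, of the synaptonemal complex, rose by 0.46 and RIM4, a regulator of meiotic translation, fell by 0.65. Of 33 tested genes of subtelomeric families 1 rose, of 70 small nucleolar RNAs 2 rose and 2 fell, and none of 17 ribosomal and structural RNAs or of the 5 marker genes of the strain was called.

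Of 6 features beside SCC2 and HIS3 on the chromosomes, 1 rose, YOR203W, described above with HIS3, and 1 fell. Among all features 4.68% rose and 5.91% fell. SAS4, NVJ3 and CSN9, beside SCC2, had log2 differences of -0.06, -0.06 and -0.01, and MRM1, before HIS3, of 0.06, and none passed. DED1, an RNA helicase gene just after HIS3, stood at 243 ± 14.0 scaled TPM in the low and 291 ± 18.2 in the high libraries, with a log2 difference of -0.26 (adjusted p = 0.0234, and 0.0571 by labels alone). Of the 84 genes named by rule that were called, 26 were called in each of the 27 other settings that tested them, among them SWI5, CHS2, KIN3, HST3, DSE1, DSE2, DSE4, SCW11, EGT2, CTS1, PRY3, DUN1, MCD1, YCS4, BUB3, BAR1, NRG2, ZAP1, VEL1, ARG3 and LEU1, and none of the 84 changed sign in any. By labels alone 56 of the 84 were still called. Of the genes described above as risen or fallen, CDC20, MCM2, SLI15, YCG1, NUF2, HIS2, ARG4, BAT1, RPN10, INO1, SAG1, TOS4, ZPS1, DED1 and POL2 did not pass by labels alone. CDC20, MCM2, SLI15, YCG1, NUF2, RPN10 and DED1 did not pass with TPM unscaled, and HSP12, TOS4 and 5 of these 7 did not with quantile normalization. Without empty vector library 2, 36 of the 84 passed, and without the WT libraries 28.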

How the data were processed

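The authors deposited 1 table of TPM for the 12 libraries. Per the submitters' processing notes, bcl2fastq 2.17, STAR, RSEM and edgeR were used with the sacCer3 genome; which step each served is not given in the sources used here. Per the labels, stranded libraries were made after removal of ribosomal RNA and read as single reads of 50 bp. Whether strand was used in counting is not stated. TPM keeps no depth, so no counting interval is given.

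Of 7036 features, 3 with shifted values were left out, 1 unnamed column was not used, and 248 of the 7033 used had values identical to another. TPM was scaled per library by median of ratios over 5421 genes (mean TPM of 10 or more, none at 0), with factors from 0.904 to 1.19. Features averaging at least 1 TPM, 6096 without SCC2, entered the test on log2(scaled TPM + 1), a scale that understates changes of low genes, with limma 3.58.1 in R 4.3.3 (variance trend, 9 residual and 3.27 prior degrees of freedom) in 1 fit with 2 levels, and adjusted by Benjamini-Hochberg over all of them. The test was tested on simulated data. Means are of scaled TPM ± SD and SE is that of the log2 difference.

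The genes named by rule were SCC2, HIS3, the cohesin genes and chromosomal neighbours, the 12 called features that rose most and the 12 that fell most, given an average of at least 5 TPM and separate ranges, and up to 4 called members of each of 29 lists. Some genes that the rule took are left out of the text. The libraries, lists and comparisons were chosen with earlier results of these data known. Positions are from the R64 annotation, which matched 6125 features. Alternatives covered scaling, pseudocount, filters, the variance model, the replicate block, leaving out each library, and other divisions of the libraries by label.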

Additional observations from a re-analysis of the deposited data

Results flagged for a closer look

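In library 1 labelled G1242V, which was in neither set, the median position over 200 genes was 0.555, above every WT and R787G library (-0.274 to 0.317). HIS3 stood there at 2498 scaled TPM, above every high library (796 to 1353).

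A library far from the rest of its set, by its gap to the nearest other library against the set's range, was found in 17 of 260 groups tested, where chance gives about 1 in 20, or 5%. Among the 7 high libraries, R787G library 3 was highest for PRY3 (30.0 scaled TPM), EGT2 (124) and the median of the G2/M list (0.070 on the log2 scale) and lowest for ZPS1 (1297). R787G library 2 was highest for Q0182, an open reading frame of the mitochondrial genome (25.4), and lowest for YNL058C (86.3). Library 2 labelled G1242V was highest for RPS22B, a ribosomal protein gene (70.5). Among the 4 low libraries, empty vector library 2 was highest for NRG2 (85.6), YJL047C-A (31.0) and TIS11 (82.3) and lowest for EGT2 (22.6). Empty vector library 3 was lowest for UTP23, a ribosome biogenesis gene (21.1), and for the median of the zinc list (0.32). Empty vector library 1 was lowest for STD1, a regulator of glucose sensing (75.8), and for the median of the strain marker genes (0.015). Library 3 labelled G1242V was highest for BUB3 (12.6) and for the small nucleolar RNA snR74 (1.36).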

How the results depend on the processing

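Called features, 645 with 285 higher and 360 lower, ranged over leaving out each library from 220 to 702, with 64 to 305 higher and 156 to 397 lower. Without the libraries labelled G1242V there were 313 (121 and 192), and 320 (115 and 205) with WT and R787G as separate levels. With library 1 labelled G1242V counted as high there were 256 (82 and 174), and counted as low 925 (426 and 499). Without WT there were 140 (27 and 113) and without R787G 334 (139 and 195). With TPM as deposited 650 were higher and 151 lower. Pseudocounts, filters, quantile normalization, the variance models and log2 SCC2 as a continuous term gave between 561 and 647. Where smaller sets were fitted fewer libraries entered, and the cause of the other changes was not tested.

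With a replicate block 939 features were called, 399 higher and 540 lower. Pairing by equal number was mixed across low and high. Deviations of empty vector and WT libraries correlated at -0.05, 0.36 and 0.0048, and of empty vector and R787G libraries at -0.32, 0.13 and 0.30. All 3 pairs of WT and R787G, both high, exceeded 0.1 (0.33, 0.19 and 0.62), and 5 of 9 libraries correlated best with their own number.

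Leaving out libraries for list medians and placement was chosen after seeing the data. Relative to all features, the median of the cohesin list ranged from 0.034 to 0.10, of the G2/M list from -0.57 to -0.50, of the meiosis list from 0.085 to 0.15, of the mitochondrial genome from -0.57 to -0.15, of Gcn4 targets from -0.03 to 0.09, of hexose genes from 0.04 to 0.22 and of small nucleolar RNAs from -0.10 to 0.12. The median position of library 1 labelled G1242V ranged from 0.468 to 0.702. Without depth, low genes cannot be given a counting error.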
